A study of Caenorhabditis elegans with 2 samples.

Results

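Divergent promoters are the stretches between head-to-head genes, where the left gene is read from the minus strand and the right gene from the plus strand, so that both 5' ends face each other. They were found in the Ensembl release 115 annotation of the Caenorhabditis elegans genome WBcel235, the same assembly as ce11. A pair was kept where neighbouring protein-coding genes did not overlap, their 5' ends lay at most 1000 bp apart, and no tRNA, rRNA, snRNA or snoRNA gene lay within 250 bp of the space between them. This gave 1699 divergent pairs with 3398 genes, of 17100 gaps between neighbouring protein-coding genes and of 19973 protein-coding genes in all. The same limits left 5504 same-strand gaps, between neighbours read in one direction, and 1777 convergent gaps, between neighbours whose 3' ends face each other, for 8980 gaps in total. The median distance between facing ends was 471 bp in divergent pairs, 354 bp in same-strand gaps and 313 bp in convergent gaps.

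The study mapped HIM-1 by chromatin immunoprecipitation and sequencing in 1 group of 2 replicates, with no control group among the samples. Both were whole hermaphrodites of strain YL577, which stably carries HIM-1 with GFP and FLAG fused to its C-terminus. The promoter that drives the tagged protein and the state of the untagged him-1 gene are not stated in the labels. The animals were young adults taken 47 hours after release of starved, synchronized larvae, and they held germline and somatic tissue together, so no value can be assigned to a cell type. The description names an antibody against GFP, whereas the antibody field names him-1. The replicates have separate biosample entries, but nothing states that they were separate cultures, so the spread between them may be technical.

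The tagged protein, HIM-1, is the worm's SMC-1, one of the long coiled arms of cohesin. Cohesin is a protein ring that ties sister chromatids to each other, organises meiotic chromosome axes and forms loops in chromatin. In many organisms cohesin is loaded or held at active promoters, where the DNA is free of nucleosomes. A divergent promoter holds the start sites of a pair of genes in one open stretch. In mammals, genes used in every dividing cell are often arranged in this way. In C. elegans the annotated 5' end of a gene is often the site where a leader RNA is spliced on, so the true start of transcription can lie further into the space between the genes.

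The sequences at the strongest divergent promoters show what lay under the summits, which are the single bases at which the peak caller placed the top of each peak. The first 5 are from the 6 pairs with the highest peak signal, of which gskl-2/imp-1, the 4th, is not printed, with 240 bases of the space between the genes around the summit. Capitals mark CGCCC on either strand, a binding sequence of Sp1-type factors in mammals, and GCGCGC, a run of alternating G and C.
rpl-20/Y17G9B.5, chrIV:4749937-4750176, plus strand: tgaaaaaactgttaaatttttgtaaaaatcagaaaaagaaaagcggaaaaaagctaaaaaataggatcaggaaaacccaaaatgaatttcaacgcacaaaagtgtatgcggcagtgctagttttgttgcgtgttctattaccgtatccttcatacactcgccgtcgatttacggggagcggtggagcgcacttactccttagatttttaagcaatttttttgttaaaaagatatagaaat
K01G5.10/tasp-1, chrIII:10759067-10759306, plus strand: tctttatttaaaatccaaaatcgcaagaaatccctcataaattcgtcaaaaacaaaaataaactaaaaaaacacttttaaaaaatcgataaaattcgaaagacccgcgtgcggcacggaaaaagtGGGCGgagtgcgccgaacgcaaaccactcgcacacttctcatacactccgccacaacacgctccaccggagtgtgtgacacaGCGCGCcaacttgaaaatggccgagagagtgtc
sec-61.B/trap-3, chrIV:2389035-2389274, plus strand: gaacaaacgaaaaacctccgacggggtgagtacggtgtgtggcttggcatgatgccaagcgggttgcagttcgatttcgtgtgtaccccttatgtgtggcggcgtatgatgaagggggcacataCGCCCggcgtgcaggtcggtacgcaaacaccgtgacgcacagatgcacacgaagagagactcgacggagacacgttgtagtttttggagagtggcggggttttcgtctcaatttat
rpl-7A/set-21, chrIV:4390591-4390830, plus strand: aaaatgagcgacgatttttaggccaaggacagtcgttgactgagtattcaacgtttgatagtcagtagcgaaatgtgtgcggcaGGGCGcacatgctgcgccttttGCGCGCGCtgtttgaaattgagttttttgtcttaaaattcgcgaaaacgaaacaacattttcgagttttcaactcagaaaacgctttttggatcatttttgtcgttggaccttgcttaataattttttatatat
larp-1/wip-1, chrIII:5018176-5018415, plus strand: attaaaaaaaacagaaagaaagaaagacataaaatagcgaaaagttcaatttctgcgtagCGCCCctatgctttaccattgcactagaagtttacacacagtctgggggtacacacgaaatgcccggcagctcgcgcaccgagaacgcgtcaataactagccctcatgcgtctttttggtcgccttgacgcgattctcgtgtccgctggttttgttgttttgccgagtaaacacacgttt
The summit is base 121 of the printed sequence at rpl-20/Y17G9B.5, sec-61.B/trap-3 and larp-1/wip-1, base 176 at K01G5.10/tasp-1 and base 56 at rpl-7A/set-21. GCGCGC occurred once at K01G5.10/tasp-1 and in 2 overlapping copies at rpl-7A/set-21, and in none of the other 3 printed stretches. The GC content of the printed stretches ran from 35.0% at rpl-20/Y17G9B.5 to 54.6% at sec-61.B/trap-3. The sequence was read from the RefSeq copy of WBcel235.

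The narrowest spaces among the 20 strongest pairs can be shown whole. They were chosen after their values were seen.
gei-14/slc-25A32, chrII:8276232-8276297, plus strand: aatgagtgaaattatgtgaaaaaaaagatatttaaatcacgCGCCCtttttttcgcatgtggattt
ears-2/uncp-18, chrIV:390469-390559, plus strand: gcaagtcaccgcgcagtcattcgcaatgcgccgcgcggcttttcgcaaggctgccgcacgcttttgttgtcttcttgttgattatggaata
The summit is base 9 of 66 between gei-14 and slc-25A32, and base 30 of 91 between ears-2 and uncp-18. In both pairs the deposited peak covered the whole space and ran into both genes, at the 464 bp width that all peaks in divergent pairs shared.

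The next 3 stretches hold GCGCGC close to the summit, which is base 41 of 81 in each. They are the pairs with the highest signal that had this sequence within 40 bases of the summit, outside the 20 strongest, and they were chosen after their values were seen. Capitals mark GCGCGC.
tbb-1/rib-2, chrIII:10742631-10742711, plus strand: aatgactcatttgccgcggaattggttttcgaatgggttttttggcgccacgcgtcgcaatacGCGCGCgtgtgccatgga
E04F6.6/pcrg-1, chrII:7200219-7200299, plus strand: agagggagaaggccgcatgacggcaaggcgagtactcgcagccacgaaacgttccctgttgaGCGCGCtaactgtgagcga
Y53F4B.9/Y53F4B.11, chrII:15010576-15010656, plus strand: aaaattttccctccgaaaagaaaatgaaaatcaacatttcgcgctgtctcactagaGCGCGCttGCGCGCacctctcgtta
The gene tbb-1 encodes a beta-tubulin, a building block of the spindle. GCGCGC is given for all divergent pairs further below.

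A HIM-1-GFP summit lay between the 5' ends of 170 of the 1699 divergent pairs (10.0%, 95% interval 8.62 to 11.5%) in the authors' optimal list of 2051 peaks. These are the 2051 pooled peaks with the highest signal, and the list was thresholded on repeatability as a whole, so that single peaks in it can be missing from a replicate's list. Over all 8980 gaps the share was 5.35%. It was 220 of 5504 (4.0%, interval 3.5 to 4.55%) in same-strand gaps and 90 of 1777 (5.06%, interval 4.09 to 6.19%) in convergent gaps. No divergent pair held more than 1 summit of this list. Intervals are exact Clopper-Pearson intervals, or exact Poisson intervals for values per kb, and cover counting error over pairs only.

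Each replicate gave a higher share for divergent pairs than for the other gaps. Taking the strongest 2051 peaks of its own list, replicate 1 had a summit in 123 divergent pairs (7.24%), where the share over all gaps was 4.81%. Replicate 2 had one in 165 (9.71%), where the share over all gaps was 5.13%. The mean was 8.48% ± 1.75 in divergent pairs, against 3.89% ± 0.128 in same-strand gaps and 4.98% ± 0.119 in convergent gaps (SD, n = 2 each). Both replicates had a summit in 92 divergent pairs (5.41%, interval 4.39 to 6.6%), where the share over all gaps was 3.13%, in 125 same-strand gaps (2.27%) and in 64 convergent gaps (3.6%).

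In a binomial (logistic) model with width class and chromosome, divergent pairs had higher odds of a summit than same-strand gaps, with an odds ratio of 1.99 (interval 1.6 to 2.46, Wald test, 2-sided, adjusted p = 1.2e-09 over the 4 odds ratios fitted). Against convergent gaps the odds ratio in the same binomial model was 1.47 (interval 1.12 to 1.93, Wald test, 2-sided, adjusted p = 0.0111). This second difference rested on replicate 2, since without it the binomial model gave 1.02 (adjusted p = 0.899). Among the strongest 1025 peaks the binomial model's odds ratio turned to 0.776 (adjusted p = 0.172). The difference from same-strand gaps was kept in both settings of the binomial model, with 1.38 (adjusted p = 0.0215) and 1.79 (adjusted p = 0.00223).

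A divergent pair has a 5' end at each side, and a same-strand gap has 1. Counted per 100 facing 5' ends, gaps with a summit were 5.0 in divergent pairs and 4.0 in same-strand gaps. This order turned where the narrow gaps, up to 200 bp, were left out, with 5.33 in divergent pairs and 5.46 in same-strand gaps. It was 4.47 and 6.69 over 200 to 300 bp, and 6.16 and 6.91 over 300 to 500 bp. Over 500 to 1000 bp divergent pairs were again higher, with 5.2 against 4.32. Counted by length, divergent pairs held 0.204 summits per kb (interval 0.174 to 0.237), against 0.104 in same-strand gaps and 0.0205 over the genome. Convergent gaps held 0.163 per kb (interval 0.133 to 0.198), and this interval overlaps that of divergent pairs. In replicate 1 divergent pairs held 0.149 per kb, against 0.165 in convergent gaps. In replicate 2 divergent pairs held 0.198 per kb, against 0.16 in convergent gaps. The spaces between divergent genes made up 0.833% of the genome and held 8.29% of the optimal summits.

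No trend with the distance between the 5' ends passed the test over all pairs. The share was 5 of 54 pairs (9.26%, interval 3.08 to 20.3%) up to 100 bp, 10 of 192 (5.21%) over 100 to 200 bp and 23 of 257 (8.95%) over 200 to 300 bp. It was 49 of 398 (12.3%, interval 9.25 to 15.9%) over 300 to 500 bp and 83 of 798 (10.4%, interval 8.37 to 12.7%) over 500 to 1000 bp. Up to 100 bp replicate 1 gave 3.7% and replicate 2 gave 7.41%, both below the optimal list. Over 100 to 200 bp they gave 2.6% and 6.77%. The narrowest same-strand gaps, many of which lie inside operons with no promoter of their own, had a summit in 4 of 791 (0.506%). Leaving out gaps up to 200 bp, a setting added after seeing the data, gave 10.7% in divergent pairs, 5.46% in same-strand gaps and 6.8% in convergent gaps, with odds ratios in the binomial model of 1.81 (adjusted p = 6.6e-07) and 1.47 (adjusted p = 0.0194). In a binomial model over autosomal divergent pairs the odds ratio for each doubling of the distance was 1.18 (interval 0.995 to 1.4, adjusted p = 0.0697), which did not pass the threshold of 0.05. In the binomial model of each replicate alone it passed, with 1.21 (adjusted p = 0.0483) without replicate 1 and 1.32 (adjusted p = 0.0215) without replicate 2, and with pairs up to 2000 bp apart it turned to 0.944 (adjusted p = 0.332). Pairs just inside the limit of the selection, over 900 to 1000 bp apart, had a summit in 8 of 130 (6.15%), and pairs just outside it, over 1000 to 1100 bp apart, in 3 of 96 (3.12%).

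**Figure D1:**
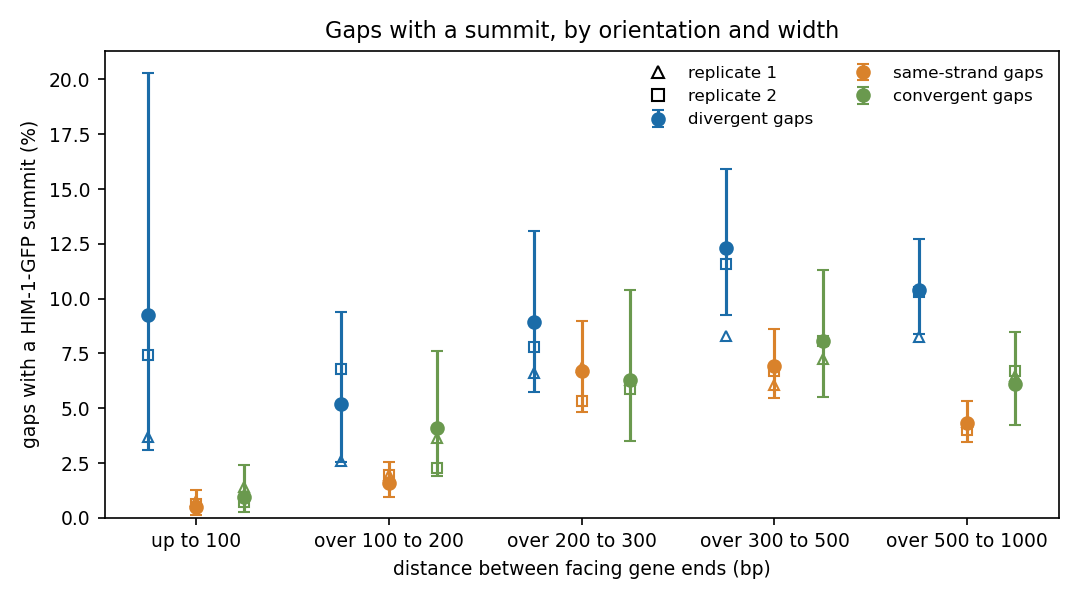
Share of gaps with a summit (%) by distance between the facing gene ends (bp), for divergent, same-strand and convergent gaps. Filled points with bars are the optimal list with 95% Clopper-Pearson intervals, and open triangles and squares are the strongest 2051 peaks of replicate 1 and replicate 2. Divergent pairs reach 12.3% over 300 to 500 bp, against 6.91% in same-strand gaps and 8.06% in convergent gaps.

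No divergent pair of the X chromosome had an optimal summit. The count was 0 of 77 on X, which allows a share of up to 3.9% at 3 counts (exact interval 0 to 4.68%), against 170 of 1622 (10.5%, interval 9.03 to 12.1%) on the autosomes. Both replicates' strongest peaks also gave 0 on X. In the whole pooled list, which has no repeatability threshold, 4 of 77 X pairs (5.19%) had a summit, against 569 of 1622 autosomal pairs (35.1%). No odds ratio could be fitted for X with a count of 0. The other gaps of X were as bare in the optimal list. A summit lay in 1 of 504 same-strand gaps (0.198%) and 0 of 216 convergent gaps. In that list the low count was thus one of X gaps of every orientation. In the whole pooled list the other gaps of X had higher shares than X divergent pairs. They were 45 of 504 (8.93%) in same-strand gaps and 16 of 216 (7.41%) in convergent gaps. On the autosomes that list gave 999 of 5000 same-strand gaps and 303 of 1561 convergent gaps (19.4%), both below divergent pairs. Whether the X shares differ by orientation was not tested.

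The autosomes differed in level. The share was 47 of 281 (16.7%, interval 12.6 to 21.6%) on chromosome III, 40 of 309 (12.9%, interval 9.41 to 17.2%) on I, 27 of 301 (8.97%) on IV, 25 of 314 (7.96%) on II and 31 of 417 (7.43%, interval 5.11 to 10.4%) on V. The other gaps also had more summits on I and III than on V. Same-strand gaps had 7.14% on I, 5.78% on III and 2.2% on V, and convergent gaps had 11.1% on I, 10.5% on III and 1.55% on V. In replicate 1 the shares of divergent pairs on III and I were 12.1% and 10.7%, and in replicate 2 they were 18.5% and 12.9%. The intervals of III and V do not overlap, and those of IV, II and V do. By position along each autosome, in its central part, from 0.333 to 0.667 of its length, 82 of 662 pairs (12.4%, interval 9.97 to 15.1%) had a summit, against 88 of 960 (9.17%, interval 7.42 to 11.2%) in the outer parts, and these intervals overlap.

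The 20 divergent pairs with the highest signal were in the strongest 2051 peaks of both replicates. Signals are those of the authors' peak caller, their scale differs between lists, and each is given with its rank in its list. The first was rpl-20/Y17G9B.5 on chromosome IV, where rpl-20 encodes a protein of the large ribosomal subunit. It had a signal of 103 (rank 43) in replicate 1 and 99.4 (rank 139) in replicate 2, and 198 (rank 81) in the optimal list. Its 5' ends were 462 bp apart, and the summit at 4750057 lay 183 bp from that of Y17G9B.5.

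K01G5.10/tasp-1 on III came next, with 75.9 (rank 162) in replicate 1, 79.1 (rank 314) in replicate 2 and 153 (rank 210) in the optimal list. The gene tasp-1 is the worm relative of taspase, a protease that cleaves chromatin regulators in mammals. The summit lay 65 bp from its 5' end and 720 bp from that of K01G5.10. At sec-61.B/trap-3 on IV both genes encode parts of the channel that moves new proteins into the endoplasmic reticulum. This pair had 86.3 (rank 96) in replicate 1, 65.1 (rank 524) in replicate 2 and 151 (rank 225) in the optimal list. Other annotated genes, 2 in number and none of them protein-coding, lie in the space between sec-61.B and trap-3.

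The pair gskl-2/imp-1 on I, a relative of glycogen synthase kinase beside an intramembrane protease, had 60.6 (rank 335) in replicate 1, 88.2 (rank 212) in replicate 2 and 148 (rank 235) in the optimal list. At rpl-7A/set-21 on IV, a large-subunit ribosomal protein gene beside a gene with the SET domain of histone methyltransferases, the values were 78.3 (rank 139), 65.2 (rank 522) and 146 (rank 250) in the same order. At larp-1/wip-1 on III, an RNA-binding La-related protein gene beside a regulator of actin, they were 61.7 (rank 319), 76.0 (rank 346) and 137 (rank 314). The replicates thus ordered these pairs differently. Replicate 1 ranked sec-61.B/trap-3 and rpl-7A/set-21 above gskl-2/imp-1, and replicate 2 ranked them below it.

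The 14 other pairs of the 20 had an optimal signal between 110 and 133. They included mlcd-1/idhg-1 (124), with a subunit of isocitrate dehydrogenase of the citric acid cycle, and rsr-1/sri-5 (121), where rsr-1 encodes a splicing cofactor and sri-5 a chemoreceptor. They also included piit-1/sas-5 (120), where sas-5 is needed to build centrioles, and ears-2/uncp-18 (120), with a mitochondrial tRNA synthetase. Genes of the RNA machinery stood on both sides at rpb-12/aly-2 (116), which pairs a subunit of RNA polymerase with an mRNA export factor. The lowest of the 20 was rps-23/dpm-3 (110), with a small-subunit ribosomal protein. The lowest rank of any of the 20 was 1055 in replicate 1 (gei-14/slc-25A32) and 790 in replicate 2 (rps-23/dpm-3). The histone pair his-67/his-68 (133) was the 7th, but histone genes have near-identical copies, and reads cannot be assigned to one copy with certainty.

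**Figure D2:**
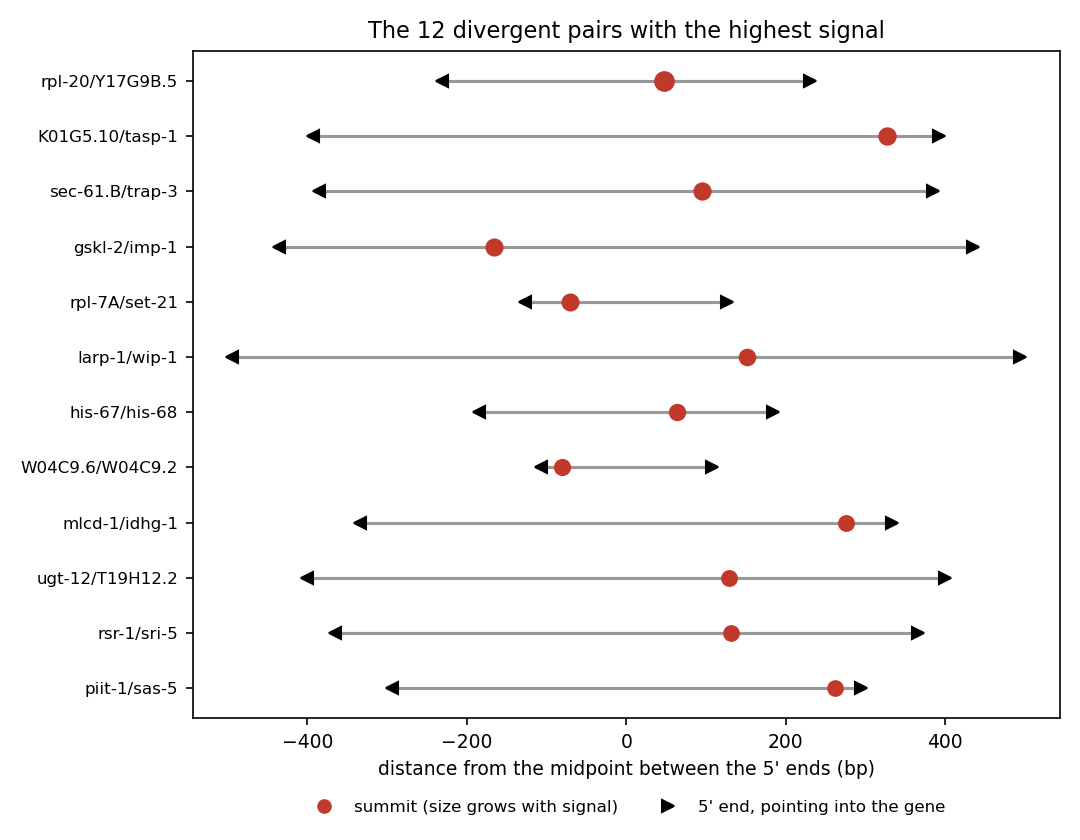
The 12 divergent pairs with the highest signal, strongest at the top. Each line runs from one 5' end to the other, centred on its midpoint (distance in bp), and the point is the summit in the optimal list, larger for a higher signal. Some summits lie near the midpoint (rpl-20/Y17G9B.5, 279 and 183 bp from the 5' ends) and others beside one gene (piit-1/sas-5, 32 bp from the 5' end of sas-5).

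Summits in divergent pairs lay a median of 156 bp from the nearer 5' end, with quartiles of 68.5 and 234 bp. Their median relative position, from 0 at the left 5' end to 1 at the right, was 0.522. In 82 of 170 pairs (48.2%, interval 40.5 to 56.0%) the summit lay in the central part of the space, from 0.333 to 0.667 on this scale, a value close to the 48.1% of convergent gaps and below the 53.9% of same-strand gaps, whose intervals include it. The 5' ends lie at both sides of a divergent pair and at neither side of a convergent gap. All 170 peaks had the same deposited width of 464 bp. Which 5' ends a peak covered thus followed from the summit's place and the distance between the ends. Of the 170, 50 (29.4%) covered both 5' ends and 43 (25.3%) lay wholly between them, so these data cannot separate the promoters of the pair at short distances.

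Summits were sparse inside the genes. The first 250 bp of the genes of all 1699 pairs held 0.0165 summits per kb (interval 0.00904 to 0.0278), the next 250 bp held 0.00739 (0.00246 in replicate 1 and 0.00369 in replicate 2) and the 500 bp after that held 0.00908, against 0.204 between the 5' ends. The genome as a whole held 0.0205 per kb. In replicate 1 the first 250 bp inside held 0.0177 per kb, and in replicate 2 they held 0.0189.

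Most summits in divergent pairs belonged to the weaker optimal peaks, and replicate 1 held fewer of them than replicate 2. In divergent pairs the optimal signal had a median of 76.3 (60.8 to 198), against 78.3 in same-strand gaps, 97.8 in convergent gaps and 83.3 over all optimal peaks. Of the 170, 64 (37.6%) were among the 1025 peaks with the highest signal. Of the 170 pairs, 107 (62.9%, interval 55.2 to 70.2%) were in the strongest peaks of replicate 1, 144 (84.7%, interval 78.4 to 89.8%) in those of replicate 2, 91 (53.5%) in both and 10 in neither. Pairs in replicate 1 alone numbered 16, and pairs in replicate 2 alone numbered 53. In same-strand gaps the replicates were nearer to each other, with 75.5% and 77.7%, and so they were in convergent gaps, with 82.2% and 84.4%.

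Sharing followed signal. Of the 85 stronger pairs, 75 (88.2%) were in both replicates' strongest peaks, against 16 (18.8%) of the 85 weaker pairs. This order is in part built in. The optimal signal comes from the same 2 replicates pooled, and each replicate's list was cut at 2051 peaks. In the whole lists of the replicates, 165 of the 170 had a summit in replicate 1 and 168 in replicate 2. The 3 strongest pairs in neither replicate's strongest peaks were dnj-19/nhr-47, C01G10.10/C01G10.9 and zip-4/nol-58. At zip-4/nol-58, where nol-58 encodes a core protein of snoRNA particles, the rank was 5483 in replicate 1 and 2075 in replicate 2, against 1548 in the optimal list. The 3 strongest pairs without an optimal summit were sup-35/Y48A6C.4, hsp-110/rpn-3 and R07E5.7/cku-80, at ranks 2053, 2057 and 2087 of the pooled list, just past the 2051 that were kept.

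**Figure D3:**
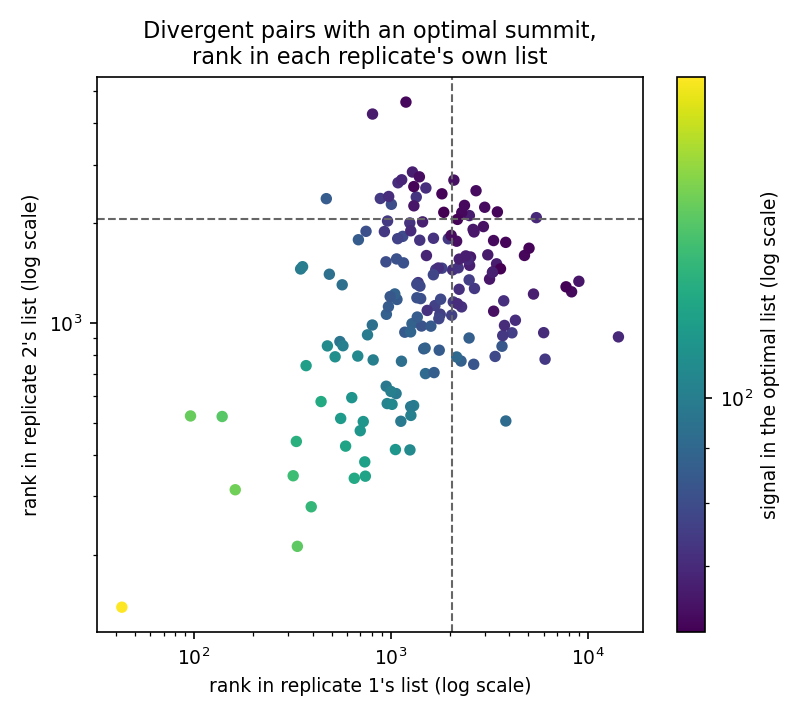
Rank of the 163 divergent pairs with an optimal summit that had a summit in both replicates' whole lists, in replicate 1 (x axis) and replicate 2 (y axis), both on log scales with rank 1 the strongest. Colour is the signal in the optimal list, and dashed lines mark rank 2051. The first pair, rpl-20/Y17G9B.5, sits at the lower left with ranks 43 and 139, and the pairs beyond the vertical line are those that replicate 1 ranked lower.

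The whole pooled list is deposited as peaks together with background, so an entry in it below the optimal threshold is not by itself a peak. In this list 573 of 1699 divergent pairs (33.7%, interval 31.5 to 36.0%) had one, where the share over all gaps was 21.6%. It was 19.0% in same-strand gaps and 18.0% in convergent gaps. Of these divergent pairs 403 had entries below the optimal threshold only, with a highest signal between 21.8 and 60.7, and 250 of the 403 had an entry in both replicates' whole lists. The other 1126 pairs (66.3%) had no entry in the pooled list.

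In the optimal list the highest shares were those of cytosolic ribosomal proteins, transcription and chromatin factors, DNA replication and repair, and cell division. The strongest peaks of each replicate did not keep this order. DNA replication and repair had 7 of 38 pairs in each replicate, and chaperones had 7 of 37 in replicate 1 and 9 of 37 in replicate 2. Pairs with a cytosolic ribosomal protein gene had a summit in 16 of 39 (41.0%, interval 25.6 to 57.9%), against 10.0% over all divergent pairs and 5.35% over all gaps. Counts in the strongest peaks of the replicates were 11 in replicate 1 and 17 in replicate 2. After the pairs described above, the highest was ifet-1/rps-1 (108), which joins a translational repressor of the germline to a small-subunit protein. Both genes encode ribosomal proteins at rps-14/rpl-36, which had a signal of 67.3. Lists hold genes by symbol, a pair counts for each list it has a gene in, and no list was tested.

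Transcription and chromatin factors had summits in 19 of 57 pairs (33.3%, interval 21.4 to 47.1%), with 14 in replicate 1 and 20 in replicate 2. They included rpl-12/lin-54 (101), lin-53/nra-2 (98.3) and vps-51/lin-35 (79.4), whose lin genes belong to the DREAM complex or its partners, repressors of cell cycle genes. In this and the other lists, pairs beyond the 2 with the highest signal were named after their values were seen.

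DNA replication and repair genes had summits in 12 of 38 pairs (31.6%, interval 17.5 to 48.7%), with 7 in each replicate. The pair eef-1A.1/rfc-4, a translation elongation factor beside a subunit of the clamp loader, had 49.9 (rank 566) in replicate 1, 43.8 (rank 1302) in replicate 2 and 93.4 (rank 797) in the optimal list. Subunits of the replicative helicase were at mcm-3/C25D7.15 (85.9) and R10E11.9/mcm-6 (85.5), and a subunit of the origin recognition complex at dhs-11/orc-1 (74.5). Cell division genes had summits in 15 of 52 pairs (28.8%, interval 17.1 to 43.1%), with 9 in replicate 1 and 13 in replicate 2. Beside sas-5 they included the spindle checkpoint gene of ZC328.5/san-1 (100).

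Genes of cohesin itself and of meiosis were among the pairs with a summit, in 8 of 35 (22.9%, interval 10.4 to 40.1%), with 6 in replicate 1 and 7 in replicate 2. The meiotic cohesin subunits that close the ring stood at bmk-1/coh-3 (85.9), coh-4/pid-5 (62.8) and rec-8/mex-5 (61.5), and the cohesin regulator evl-14 at evl-14/dcn-1 (61.6). At bmk-1/coh-3, where bmk-1 encodes a spindle kinesin, the signal was 34.3 (rank 1362) in replicate 1, 48.3 (rank 1041) in replicate 2 and 85.9 (rank 960) in the optimal list. Condensin subunits stood at let-630/hcp-6 (87.2) and F35G12.7/smc-4 (82.1). The last of these had no summit in replicate 1's whole list.

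Chaperones had summits in 8 of 37 pairs (21.6%, interval 9.83 to 38.2%), among them Y22D7AL.10/hsp-60 (104), and 4 of the 8 were in the 1025 strongest peaks. This count includes trap-3, which is part of the protein channel and no chaperone. RNA processing and splicing genes had summits in 13 of 64 (20.3%, interval 11.3 to 32.2%), with 6 in replicate 1 and 10 in replicate 2, among them snr-6/Y49E10.16 (96.2) with a core splicing protein. Germ granule and germline RNA regulators had summits in 9 of 49 (18.4%, interval 8.76 to 32.0%), among them vha-18/pos-1 (91.3), which ranked 3837 in replicate 1 and 506 in replicate 2. Membrane traffic genes had 8 of 50 (16.0%, interval 7.17 to 29.1%), 5 in replicate 1 and 7 in replicate 2, with cogc-2/klp-18 (98.7) and C56A3.6/cav-2 (93.4) the highest. The intervals of the chaperone, germ granule and membrane traffic lists include the 10.0% of all divergent pairs.

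Other widely used machinery was nearer to all divergent pairs. The shares were 3 of 22 (13.6%) for the nuclear pore and transport with dvc-1/ima-1 (101) and npp-3/top-2 (64.8), and 3 of 23 (13.0%) for mitochondrial ribosomal proteins with Y39A1A.22/mrpl-12 (112) and C14B9.8/mrpl-18 (72.1). They were 6 of 48 (12.5%) for the proteasome and ubiquitin with rbm-3.2/ubc-12 (83.6) and C23G10.7/rpn-2 (81.4), 4 of 34 (11.8%) for translation factors and tRNA synthetases, and 4 of 46 (8.7%) for mitochondrial respiration with rpl-36.A/nuo-1 (72.6). Their intervals all include 10.0%. In the whole pooled list, mitochondrial ribosomal protein pairs had a summit in 16 of 23 (69.6%), against 33.7% of all divergent pairs. Cytosolic ribosomal proteins had 28 of 39 (71.8%) there, meiosis and cohesin 68.6%, transcription and chromatin factors 66.7% and DNA replication and repair 63.2%. The other lists of this paragraph were also above 33.7% in the whole pooled list. They ran from 41.7% for the proteasome and ubiquitin to 54.3% for mitochondrial respiration.

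Chemoreceptor pairs had few summits. Chemoreceptors, through which sensory neurons detect odours, had 3 of 107 pairs (2.8%, interval 0.582 to 7.98%). The intervals of the other families include 10.0%. F-box, MATH and BTB genes had 3 of 79 (3.8%, interval 0.79 to 10.7%), C-type lectins 2 of 39 (5.13%, interval 0.627 to 17.3%), ion channels and neuronal genes 1 of 29 (3.45%, interval 0.0873 to 17.8%), histones 1 of 33 (3.03%, interval 0.0767 to 15.8%) and homeobox genes 0 of 5. Cuticle collagens had 2 of 18 (11.1%, interval 1.38 to 34.7%), with 0 in replicate 1 and 1 in replicate 2. C-type lectins had 0 in replicate 1 and 2 in replicate 2. The 923 pairs with no gene of any list had 59 (6.39%, interval 4.9 to 8.17%).

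Some of these pairs, picked after their values were seen, faced a gene known for a role in dividing cells or in protein synthesis. The collagen pairs were col-38/rpl-5 (70.2), with a ribosomal protein, and col-2/ndc-80 (62.3), with a kinetochore protein. The lectin pairs were ani-2/clec-88 (74.8), with a germline anillin, and clec-87/rsa-1 (67.3), with a regulator of the centrosome. The chemoreceptor pairs included rsr-1/sri-5, with the splicing cofactor, and B0495.9/sre-1 (70.9). Such a gene was not named across the promoter at the F-box pairs fbxc-44/C16A11.2 (82.5) and fbxb-85/hex-3 or at the chloride channel pair clh-5/T24H10.1 (74.5). Grouped after the values were seen, 0 of 66 pairs with a gene of these families, histones left out, on both sides had a summit (exact interval 0 to 5.44%), and neither replicate had one. The share was 7 of 184 (3.8%, interval 1.54 to 7.68%) with such a gene beside a gene of no list (rsr-1 and rsa-1 count here), and 26 of 106 (24.5%, interval 16.7 to 33.8%) with genes of the other 14 lists, called machinery genes here, on both sides. It was 74 of 375 (19.7%, interval 15.8 to 24.1%) with a machinery gene beside an unlisted gene, and 3 of 13 (23.1%) with one beside a gene of these families. One machinery gene thus went with a share whose interval overlaps that of machinery on both sides.

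**Figure D4:**
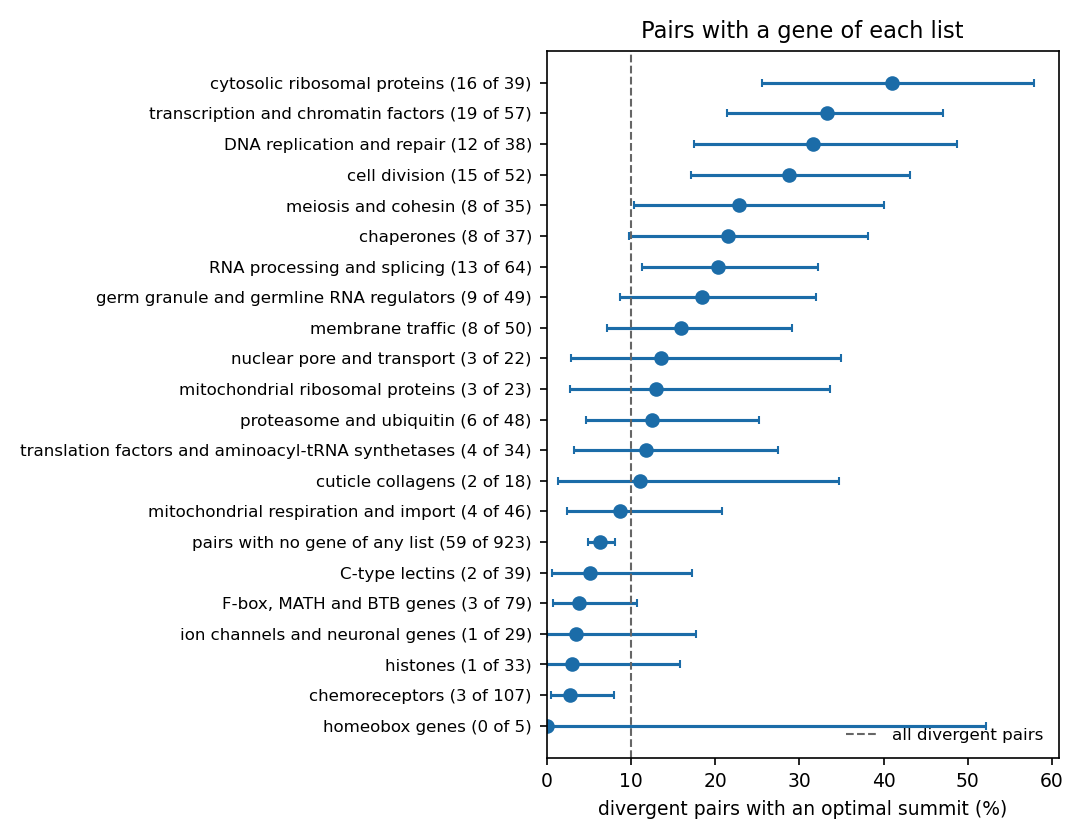
Share of divergent pairs with an optimal summit (%) for pairs with a gene of each list, with 95% Clopper-Pearson intervals and the counts in brackets. The dashed line is the 10.0% of all divergent pairs. Cytosolic ribosomal protein pairs stand highest at 41.0%, and chemoreceptor pairs stand at 2.8%.

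Pairs whose genes head a run of closely spaced genes, as the first gene of an operon does, had summits more often. In 47 pairs both genes had a same-strand neighbour within 200 bp downstream, and 12 (25.5%, interval 13.9 to 40.3%) had a summit. The count was 53 of 353 (15.0%, interval 11.5 to 19.2%) where 1 gene had such a neighbour, and 105 of 1299 (8.08%, interval 6.66 to 9.7%) where none had. Replicate 1 gave 21.3%, 11.3% and 5.62% in this order, and replicate 2 gave 25.5%, 13.3% and 8.16%. This grouping was made after seeing the data, and the share of machinery genes in each group was not compared.

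Base composition differed little. The median GC content was 33.8% in pairs with a summit and 33.0% in pairs without. By quartile of GC content, from low to high, the share with a summit was 6.82%, 10.6%, 11.8% and 10.8%. In the same binomial model over autosomal pairs the odds ratio for each 5 percentage points of GC was 1.15 (interval 0.989 to 1.34, Wald test, 2-sided, adjusted p = 0.0697), which did not pass the threshold.

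The short sequence that differed most was GCGCGC, of 9 motifs searched on both strands in the central 200 bp of gaps over 200 bp. It was in 23 of 155 divergent pairs with a summit (14.8%, interval 9.64 to 21.4%), in 56 of 1298 without (4.31%, interval 3.28 to 5.57%) and in 3.31% of all gaps. TTTTTTTT went the other way, in 14.8% with a summit, 24.3% without and 25.0% of all gaps. CGCCC was in 16.1% with a summit, 12.5% without and 9.55% of all gaps. TATAAA was in 26.5% with, 28.1% without and 26.0% of all gaps, and GAGAGA in 15.5%, 13.6% and 10.2%. TTTCAG was in 32.3%, 29.7% and 31.5%, CTACA in 18.7%, 22.0% and 28.6%, TGANTCA in 3.87%, 4.85% and 5.51%, and CACGTG in 1.94%, 3.54% and 3.24%, in the same order. The intervals with and without a summit overlapped for every motif other than GCGCGC and TTTTTTTT. A match is a run of letters and not a bound site, and GCGCGC was singled out after these shares were seen.

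Seen over the whole space between the 5' ends, 176 divergent pairs (10.4%) held GCGCGC, against 5.12% of all gaps. Of these 176, 44 (25.0%, interval 18.8 to 32.1%) had a summit, against 126 of 1522 (8.28%, interval 6.94 to 9.78%) without it. Replicate 1 gave 17.0% with it and 6.11% without, and replicate 2 gave 22.2% and 8.28%. The median distance between the 5' ends was 488 bp with it and 468 bp without. Above the median GC content of all gaps the shares were 24.4% and 9.59%, and at or below it they were 26.5% and 6.6%. Same-strand gaps had 14.5% with it and 3.54% without, and convergent gaps had 12.2% and 4.91%, but these gaps also differed in width. The median width with and without it was 568 and 343 bp in same-strand gaps, and 685 and 305 bp in convergent gaps. The intervals of the convergent shares overlap, and at or below the median GC content of all gaps they were 0 of 7 with it and 3.66% without.

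The sequence lay nearer to the summit than to the midpoint in divergent pairs. In the 44 divergent pairs that held both, the nearest GCGCGC was a median of 43.5 bp from the summit, and 39 had it within 100 bp. From the midpoint between the 5' ends the median was 76.5 bp, and 26 had it within 100 bp. In same-strand gaps the medians were 38.0 bp from the summit and 75.2 bp from the midpoint, and in the 6 convergent gaps with both they were 184 and 86.5 bp. Of the 20 strongest pairs, 5 held it, among them K01G5.10/tasp-1 and rpl-7A/set-21, whose sequences are printed above.

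**Figure D5:**
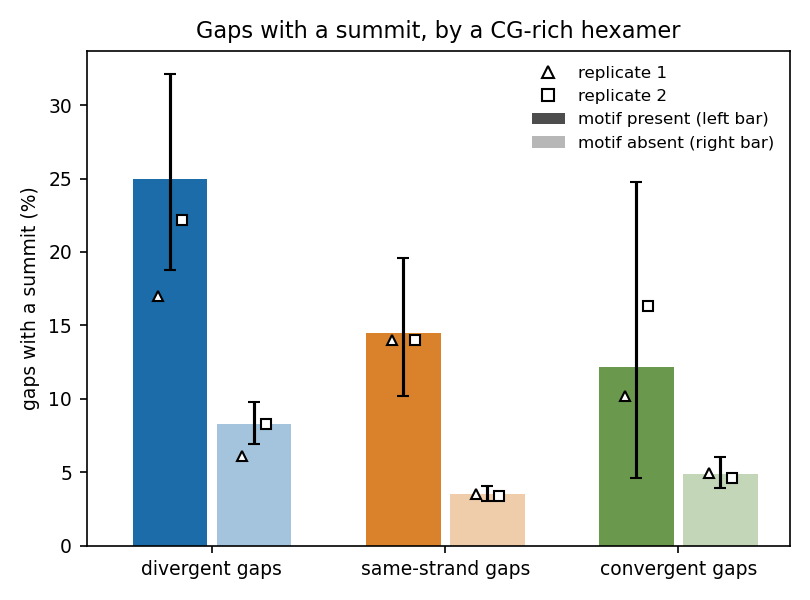
Share of gaps with an optimal summit (%) for gaps with the CG-rich hexamer (left bar) and without it (right bar), by orientation. Bars start at 0, error bars are 95% Clopper-Pearson intervals, and triangles and squares are replicates 1 and 2. Divergent pairs stand at 25.0% with it and 8.28% without.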

How the data were processed

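HIM-1-GFP peaks were compared with 1699 divergent promoters in 2 replicates of 1 group. The deposited peak lists on ce11 were used. Per the labels, the authors called peaks per replicate and on pooled alignments, and thresholded them by the irreproducible discovery rate (IDR). Aligner and peak caller: not given in the sources used here. The signal of each peak and its q-value as −log10 are the authors' own, as deposited. The lists held 22720 peaks in replicate 1, 24220 in replicate 2, 18314 pooled and 2051 in the optimal list, which are the 2051 pooled peaks with the highest signal. Read depth is unknown, and the control reads and the ce10 lists were not used here.

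A gap counted as having a summit where a summit lay between the facing gene ends. For a replicate, the 2051 peaks with the highest signal in its own list were used. Binomial (logistic) models (statsmodels 0.14.6) across gaps held orientation, width class and chromosome. Within autosomal divergent pairs they held distance and GC content only, so those odds ratios are not adjusted for chromosome. Wald tests are 2-sided with Benjamini-Hochberg adjustment. They treat gaps as independent, although replicates number 2. The models were tested on simulated summits drawn independently for each gap, which cannot check that treatment of gaps as independent.

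Members, gene lists, motifs and alternatives were chosen with earlier results of these data known. Pairs named were the 20 with the highest signal, the 2 highest of each of 21 lists, the 3 narrowest (gei-14/slc-25A32, madf-8/gsr-1 and K07B1.7/try-5) and the 3 widest with a summit, and the 3 nearest misses and 3 strongest in neither replicate. 1 pair is not reported here. Tried as alternatives were the strongest 1025 peaks, each replicate left out, other limits on distance (500 and 2000 bp) and on small RNA genes (none or 500 bp), summits up to 100 bp inside genes, gaps with no other gene, and other covariates.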

Additional observations from a re-analysis of the deposited data

Results flagged for a closer look

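The rule on small RNA genes left out 20 divergent gaps of up to 1000 bp, and 9 of them (45.0%, Clopper-Pearson interval 23.1 to 68.5%) had an optimal summit. The limit that a count of 0 allows among 20 gaps is 15.0%, and the interval lies above the 10.0% of the 1699 pairs that were kept. The strongest peaks of replicate 1 had 8 and those of replicate 2 had 9. The highest signals were at H27M09.5/syp-4 (248), where syp-4 encodes a protein of the synaptonemal complex, and at rpl-15/K11H12.8 (197). Ribosomal protein genes also stood at ska-3/rps-12 (136) and tmem-107/rps-26 (105). The pairs were chosen because a tRNA, rRNA, snRNA or snoRNA gene lay within 250 bp, and the part of that gene in the signal was not tested.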

How the results depend on the processing

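The odds ratio of divergent against same-strand gaps stayed above 1 and past the threshold in all 12 alternatives that could differ (1.38 to 2.1). The pooled list taken to 2051 peaks is the optimal list itself and is not counted. Against convergent gaps 8 of 12 kept the call. The binomial model gave 0.776 among the 1025 strongest peaks (adjusted p = 0.172), 1.39 for pairs up to 500 bp (adjusted p = 0.0683) and 1.27 with no distance kept from small RNA genes (adjusted p = 0.0676), and leaving out a replicate gave 1.02 to 1.47, the lower without replicate 2. In the binomial models and counts, leaving out a replicate gave a share of 7.24 to 9.71%, 0.149 to 0.198 summits per kb, 1.38 to 2.03 against same-strand gaps, 1.21 to 1.32 per doubling of distance (adjusted p = 0.0483 and 0.0215), 1.07 to 1.15 per 5 points of GC and a median position of 0.505 to 0.569. Among the 1025 strongest peaks the share was 3.77%, the density 0.0767 per kb and the position 0.588, where fewer peaks are counted. The density was 0.34 per kb for pairs up to 500 bp and 0.108 up to 2000 bp. The binomial model's distance odds ratio was 1.58 up to 500 bp (adjusted p = 0.0146), 1.22 with no small RNA distance (adjusted p = 0.0312) and 0.944 up to 2000 bp (adjusted p = 0.332), and the GC odds ratio was 1.24 and 1.19 in the first and second of these (adjusted p = 0.0241 and 0.0312). The causes were not tested. Of the 170 pairs, 97.1% and 98.8% had a summit in the whole lists of replicates 1 and 2. X stayed at 0 in 7 alternatives. Of 63 list counts, 37 stayed within 1.5 times. The GCGCGC difference, 25.0% less 8.28%, ranged from 5.31 to 21.9 percentage points. No paired analysis was possible because the 2 replicates form 1 group. Precision is limited by the number of pairs and by 2 replicates.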
